A study of Mus musculus with 20 samples.

Results

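The 7 genes of the chemokine receptor *Cxcr4* and its surroundings were examined in the ovary of ctrl and FL1 mice. They were *Cxcr4*, its ligand *Cxcl12*, the scavenger receptor *Ackr3*, the chemokine ligands *Ccl2*, *Cx3cl1* and *Cxcl1*, and the hypoxia factor *Hif1a*. They had been listed by symbol, and each symbol matched 1 of the 54838 Ensembl gene IDs in the count tables. The study compared ovaries of the Dummerstorf high-fertility line FL1 with those of the unselected line ctrl, in estrus and in diestrus. Each of the 4 groups (ctrl estrus, FL1 estrus, ctrl diestrus and FL1 diestrus) held 5 libraries from wild-type females of 77 days.

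Both lines go back to 1 outbred population, so the animals of a group were not genetically alike, and FL1 differs from ctrl by its whole selection history rather than by a single allele. The source label reads FL1 for every library, and the groups were taken from the titles. Fat, oviduct and *Tunica albuginea* had been removed before RNA extraction from whole ovaries. In such bulk RNA, fewer cells of a type and less RNA per cell cannot be told apart. The 3′ mRNA libraries held between 5991223 and 10352718 assigned reads (median 6957533). Markers of granulosa, luteal, stromal and oocyte cells were present in all 20 libraries, with summed levels of at least 1640, 16562, 2394 and 153 CPM (read counts scaled to the effective library size). The exception was the theca marker *Insl3*, which had at most 3 counts in every library. The 4 oviduct markers summed to 9.12 to 19.6 CPM. The 5 fat markers reached 137 and 138 CPM in 1 ctrl and 1 FL1 estrus library. The ctrl estrus replicate 5 stood farthest from its own group, at a mean distance of 101 on the log2 CPM scale against 63.3 to 82.7 in the other libraries.

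Chemokines are small secreted proteins that bind G protein-coupled receptors on the cell surface and direct cells along their gradients. CXCR4 is the signalling receptor of CXCL12, and ACKR3 binds the same ligand and removes it from the surroundings without classical G protein signalling. In the ovary, this pair is known from the guidance of germ cells to the fetal gonad, from leukocyte traffic and from work on dormant follicles, and *CXCR4* transcription responds to hypoxia through HIF1.

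The promoters of the receptor, the scavenger receptor and the ligand are shown because these genes form the axis and because the *Hif1a* product acts on such regions. RefSeq sequences (GRCm38.p6) from 250 bases before to 50 bases after the start site were given for 6 of the 7 genes, and none for *Ccl2*. *Cxcr4* (ENSMUSG00000045382) lies on the minus strand at chr1:128588199-128592293, and its promoter window was chr1:128592250-128592549. *Ackr3* (ENSMUSG00000044337) lies on the plus strand of the same chromosome at chr1:90203980-90216751, with the window chr1:90203730-90204029. *Cxcl12* (ENSMUSG00000061353) lies on the plus strand at chr6:117168535-117181367, with the window chr6:117168285-117168584. Capitals mark the hypoxia response core, searched as ACGTG and GCGTG on both strands.
*Cxcr4*: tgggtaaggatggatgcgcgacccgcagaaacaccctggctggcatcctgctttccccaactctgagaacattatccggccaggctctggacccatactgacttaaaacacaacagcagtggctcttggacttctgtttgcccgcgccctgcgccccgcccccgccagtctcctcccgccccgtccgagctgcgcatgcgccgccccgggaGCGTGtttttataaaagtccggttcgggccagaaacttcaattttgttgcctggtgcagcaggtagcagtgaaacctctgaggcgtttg
*Ackr3*: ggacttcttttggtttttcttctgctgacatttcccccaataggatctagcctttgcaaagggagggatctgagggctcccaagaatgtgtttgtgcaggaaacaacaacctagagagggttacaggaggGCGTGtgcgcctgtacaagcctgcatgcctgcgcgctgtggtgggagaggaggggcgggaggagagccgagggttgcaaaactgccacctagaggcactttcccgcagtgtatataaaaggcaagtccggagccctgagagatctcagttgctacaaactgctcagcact
*Cxcl12*: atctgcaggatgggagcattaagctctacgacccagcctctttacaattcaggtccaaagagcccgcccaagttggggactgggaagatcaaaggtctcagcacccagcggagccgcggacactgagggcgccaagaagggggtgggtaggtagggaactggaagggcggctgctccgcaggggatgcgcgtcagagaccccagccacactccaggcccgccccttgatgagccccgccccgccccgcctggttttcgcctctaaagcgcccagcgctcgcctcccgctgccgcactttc
The *Cxcr4* window held 1 core, GCGTG, which began 39 bases before the start site, and the *Ackr3* window held 1 core, GCGTG, which began 120 bases before it. The *Cxcl12* window held neither spelling. *Cxcl1* had 1 core, and *Hif1a* had 3 matches, of which the pair at 135 and 134 bases before the start read the same CACGTG from both strands. *Cx3cl1* had none. Thus 4 of 6 windows held the core, against 43.8% of the 32851 promoter windows in the table. The TATA motif, searched as TATAAA on both strands, stood in the windows of *Cxcr4*, *Ackr3* and *Cx3cl1*, that is in 3 of 6, against 13.6% of all windows. A match is a description of the letters and not a measured binding site.

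*Cxcr4* had its lowest mean in ctrl diestrus, and FL1 exceeded ctrl there in every library. In ctrl diestrus, replicates 1 to 5 had 7.19, 6.98, 3.45, 5.39 and 6.91 CPM (5.98 ± 1.59, SD, n = 5). In FL1 diestrus they had 13.4, 13.8, 20.6, 17.6 and 20.1 CPM (17.1 ± 3.39). The lowest FL1 library thus stood above the highest ctrl library. In ctrl estrus the values were 12.1, 7.12, 13.5, 18.5 and 15.8 CPM (13.4 ± 4.28), with replicate 2 inside the range of ctrl diestrus. In FL1 estrus they were 18.2, 23.0, 20.1, 16.6 and 18.5 CPM (19.3 ± 2.43). The ranges of the 2 lines overlapped in estrus, whereas in diestrus they did not.

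The order of the *Cxcr4* group means was ctrl diestrus, ctrl estrus, FL1 diestrus and FL1 estrus. Of the 3 neighbouring steps, the first had an exact two-sided permutation p = 0.0159 (0.0667 after Benjamini-Hochberg adjustment over the 42 group pairs of the 7 genes). The step from ctrl estrus to FL1 diestrus, which changes both line and stage, was not resolved (exact permutation p = 0.190). Nor was the step from FL1 diestrus to FL1 estrus (exact permutation p = 0.246). With 5 libraries in each group, no two-sided exact permutation test could give a p under 0.00794.

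In diestrus, *Cxcr4* was stronger expressed in FL1 than in ctrl, with a log2FC of 1.49 (SE 0.22, adjusted p = 0.00139) and a fold of 2.82. It was the only one of the 5 genes tested here that passed the threshold of an adjusted p of at most 0.05, against a background of 4.11% of all 13259 genes tested, and it ranked 65 by p among them. In each of the 25 comparisons of 1 FL1 with 1 ctrl library, FL1 had the higher value. In estrus the log2FC was 0.51 (SE 0.22, adjusted p = 0.260), with the higher value in FL1 in 23 of 25 pairs. None of the 6 genes tested passed in estrus by edgeR, DESeq2 or limma-voom, against a background of 2.33%, and 3 had an unadjusted p under 0.05 in edgeR (*Cxcr4*, *Ackr3* and *Ccl2*). *Cxcr4*, with an unadjusted p of 0.0331 in edgeR, ranked 1706 by p among all 13374 genes tested in estrus. The share of all genes with an unadjusted p under 0.05 is not given, so such counts here and below have no background.

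Between stages, *Cxcr4* was stronger expressed in estrus than in diestrus within ctrl, with a log2FC of 1.16 (SE 0.28, adjusted p = 0.0407), and it was the only one of 6 genes called, at a background of 2.85%. The call was not stable. It held without ctrl estrus replicate 2 (log2FC 1.32, adjusted p = 0.0207) and without ctrl diestrus replicate 1 (1.24, adjusted p = 0.04998), and was lost without any of the other 8 libraries, where the log2FC was between 1.01 and 1.21 and the adjusted p between 0.0551 and 0.117. It was lost in limma-voom too (adjusted p = 0.0611). Within FL1 the log2FC between stages was 0.18 (SE 0.16, adjusted p = 0.483), with an interval from -0.13 to 0.49 (1.96 SE on either side). The line comparison in diestrus and the stage comparison in ctrl use the same 5 ctrl diestrus libraries, so they are not independent.

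The test of the difference between stages in the line effect gave 0.98 for *Cxcr4* (SE 0.31, unadjusted p = 0.00449, adjusted p = 0.209). Thus a larger line difference in diestrus than in estrus did not pass the test across all genes. None of the 6 genes tested was called for this interaction by edgeR, DESeq2 or limma-voom, against 0.0565% of 14154 genes, and *Cxcr4* was the only 1 with an unadjusted p under 0.05.

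**Figure D1:**
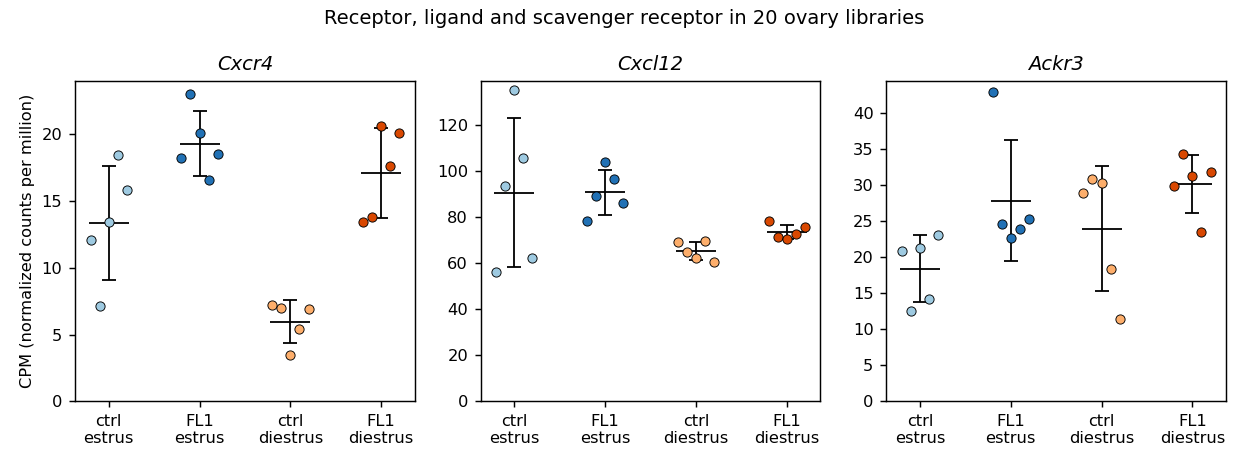
CPM of *Cxcr4*, *Cxcl12* and *Ackr3* in each of the 20 libraries by group, with each vertical axis starting at 0. Points are libraries, horizontal lines are group means and bars are 1 SD (n = 5); the ctrl diestrus libraries of *Cxcr4* lie between 3.45 and 7.19 CPM and the FL1 diestrus libraries between 13.4 and 20.6 CPM.

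*Cxcr4* is expressed by many leukocytes, and some leukocyte markers moved with it. Of the 16 markers, 11 were tested in diestrus and 4 rose in FL1 by edgeR, with none lower, against 4.11% of all genes called: *Lyz2* (log2FC 1.31, adjusted p = 0.0250), *Tyrobp* (0.82, adjusted p = 0.0279), *Cd68* (0.79, adjusted p = 0.0467) and *Laptm5* (0.63, adjusted p = 0.0209). DESeq2 called 5 of the markers, among them *Csf1r*, which was lower in FL1, and limma-voom called 3. By edgeR, *Ptprc*, the general leukocyte antigen, had a log2FC of 0.53 (adjusted p = 0.202). The macrophage markers *Csf1r* and *Adgre1* had -0.54 (adjusted p = 0.0848) and -0.37 (adjusted p = 0.468) by the same test. The marker genes therefore did not share 1 direction.

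The summed leukocyte marker level ranged from 185 to 320 CPM in ctrl diestrus and from 251.5 to 604 CPM in FL1 diestrus, so that the ranges overlapped, unlike those of *Cxcr4*. In estrus it ranged from 228 to 350 CPM in ctrl and from 298 to 596 CPM in FL1. *Lyz2* alone accounted for a mean of 93.8 CPM in ctrl diestrus and 234 CPM in FL1 diestrus. The B cell marker *Cd79a* had at most 3 counts in every library, and *Cd3e* and *Ncr1* had at most 11.

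As a share of the leukocyte marker sum, *Cxcr4* amounted to 1.80 to 3.55% in ctrl diestrus (median 2.91%) and 2.96 to 7.0% in FL1 diestrus (median 4.29%). The shares were 3.13 to 6.35% in ctrl estrus and 2.78 to 6.76% in FL1 estrus. Across the 20 libraries, log2 CPM of *Cxcr4* and of the marker sum had r = 0.69, and after removal of the group means r = 0.19. Both values come from the same libraries, and these correlations are descriptions. Of the other marker lists, 1 gene each of the endothelial (*Egfl7*, log2FC 0.65), granulosa (*Foxl2*, 0.53) and luteal list (*Lhcgr*, 1.43) rose in FL1 in diestrus by edgeR. These lists had 10, 9 and 8 tested genes, and 4.11% of all genes were called. Between stages in ctrl, where 2.85% of all genes were called, 1 of 11 leukocyte markers rose in estrus by edgeR (*Cd68*, log2FC 0.82, adjusted p = 0.0437) and none by limma-voom. In the same comparison edgeR called 3 of 8 tested theca and stroma markers. *Col1a1* (log2FC 1.01) and *Pdgfra* (0.78) rose, and *Cyp17a1* (-5.02) fell. Of the luteal markers 1 of 8 fell (*Lhcgr*, -1.75) and of the granulosa markers 1 of 9 (*Inhba*, -1.50), and 0 of 10 endothelial markers were called. The fat markers summed to 27.4 to 137 CPM in estrus and 21.3 to 51.6 CPM in diestrus. The part of these cells in the *Cxcr4* differences was not tested.

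**Figure D2:**
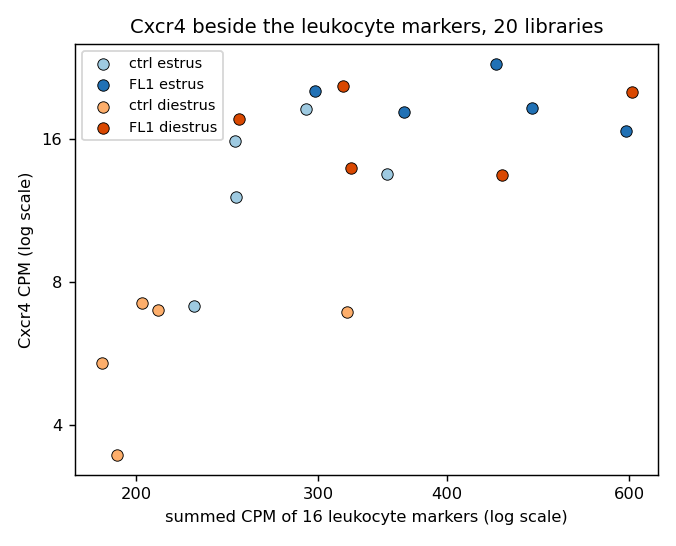
*Cxcr4* CPM against the summed CPM of 16 leukocyte markers, both on log scales, with 1 point per library (20 libraries, 5 per group). The ctrl diestrus points lie low on the vertical axis at marker sums of 185 to 320 CPM, with ctrl estrus replicate 2 (*Cxcr4* at 7.12 CPM) inside their vertical range. The FL1 diestrus points, at marker sums of 251.5 to 604 CPM, lie above the ctrl diestrus points.

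*Cxcl12*, which encodes the ligand made by stromal and endothelial cells, was even in diestrus and scattered in ctrl estrus. In ctrl diestrus, replicates 1 to 5 had 69.5, 65.0, 62.5, 69.6 and 60.5 CPM (65.4 ± 4.08), and in FL1 diestrus 78.3, 71.5, 70.8, 72.8 and 75.7 CPM (73.8 ± 3.12). The FL1 values lay above all ctrl values, by a small margin. In ctrl estrus the values were 56.3, 93.5, 135, 106 and 62.5 CPM (90.7 ± 32.4), and in FL1 estrus 78.5, 89.4, 104, 96.7 and 86.2 CPM (91.0 ± 9.79). The ctrl estrus libraries spanned the range of all other groups.

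In FL1, *Cxcl12* rose from diestrus to estrus with a log2FC of 0.30 (SE 0.087, adjusted p = 0.0249) and no overlap between the groups. It was 1 of 2 of the 6 tested genes called in this comparison, where 15.9% of all genes were called. The call was lost without FL1 estrus replicate 3 or 4 and without FL1 diestrus replicate 2, 3 or 4 (log2FC 0.25 to 0.30, adjusted p between 0.0504 and 0.0636). Endothelial markers went the other way in the same comparison, with 8 of 10 lower in estrus, and the summed level was 375 to 456 CPM in FL1 estrus against 588 to 714 CPM in FL1 diestrus. Of the stromal genes, 5 of 8 tested theca and stroma markers rose in estrus, among them *Col1a1* (log2FC 1.00) and *Pdgfra* (0.83), and *Cyp17a1* fell by 3.83 on the log2 scale. Their part in the *Cxcl12* difference was not tested.

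In ctrl, the difference of *Cxcl12* between stages was 0.47 (SE 0.20, adjusted p = 0.263), and the interaction was 0.17 (SE 0.23, adjusted p = 0.819), so a stage effect restricted to FL1 was not shown. Between the lines, the log2FC was 0.17 in diestrus (SE 0.079, adjusted p = 0.292, exact permutation p = 0.00794, n = 5 per group) and near 0 in estrus, with an interval from -0.39 to 0.38. The diestrus groups did not overlap, and the edgeR p was 0.0551 before adjustment. In the order of means, ctrl diestrus and FL1 diestrus were followed by ctrl estrus and FL1 estrus, and the 2 estrus groups differed by less than their spread (exact permutation p = 0.794).

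*Ackr3*, the scavenger of the same ligand, had its highest mean in FL1 diestrus, where replicates 1 to 5 had 29.8, 34.2, 31.2, 23.4 and 31.8 CPM (30.1 ± 4.06). In ctrl diestrus the values were 28.9, 30.8, 30.3, 18.3 and 11.4 CPM (23.9 ± 8.68). The ctrl libraries fell into 3 near 30 and 2 lower ones. In ctrl estrus the values were 20.8, 12.6, 21.3, 14.2 and 23.1 CPM (18.4 ± 4.67), and in FL1 estrus 42.8, 24.5, 22.7, 23.8 and 25.3 CPM (27.8 ± 8.43). FL1 estrus replicate 1 stood apart from the other 4 libraries of its group.

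No comparison of *Ackr3* passed the threshold. The line difference was 0.59 in estrus (SE 0.22, adjusted p = 0.203), with the higher value in FL1 in 24 of 25 pairs, and 0.38 (adjusted p = 0.450) without FL1 estrus replicate 1. In diestrus it was 0.32 (SE 0.22, adjusted p = 0.507). Estrus against diestrus gave -0.38 in ctrl (adjusted p = 0.557) and -0.11 in FL1 (adjusted p = 0.701). The intervals of these stage differences ran from -0.90 to 0.14 and from -0.45 to 0.22, so that moderate differences in either line remained possible. None of the neighbouring steps in the order of the *Ackr3* means (ctrl estrus, ctrl diestrus, FL1 estrus, FL1 diestrus) had an exact permutation p under 0.325.

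*Ccl2* (ENSMUSG00000035385, chr11:82035571-82037453), which encodes a monocyte attractant, was scarce, with 1 to 68 counts per library. In FL1 estrus, replicates 1 to 5 had 1.62, 3.29, 4.2, 8.59 and 7.28 CPM (4.99 ± 2.88), and in FL1 diestrus 1.87, 0.784, 0.158, 1.42 and 1.00 CPM (1.05 ± 0.649). Only FL1 estrus replicate 1 lay within the range of FL1 diestrus. In ctrl estrus the values were 1.34, 2.65, 3.14, 1.79 and 2.76 CPM (2.33 ± 0.741), and in ctrl diestrus 0.189, 2.87, 1.35, 0.490 and 0.922 CPM (1.16 ± 1.05). Here the stages overlapped through ctrl diestrus replicates 2 and 3.

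*Ccl2* rose in FL1 from diestrus to estrus with a log2FC of 2.23 (SE 0.51, adjusted p = 0.00676), higher in 24 of 25 pairs. The call held in each of the 10 fits that left out 1 library (log2FC 1.96 to 2.54). In ctrl the stage difference was 1.00 (SE 0.56, adjusted p = 0.440), and the interaction of -1.23 (adjusted p = 0.575) did not show that the lines differed in it. Between the lines the log2FC was 1.10 in estrus (SE 0.42, adjusted p = 0.214). In diestrus *Ccl2* was below the filter on low counts, and with that filter lowered to 1 count in total it had a log2FC of -0.14 (SE 0.70, adjusted p = 0.953). The leukocyte marker sum in FL1 ranged from 298 to 596 CPM in estrus and from 251.5 to 604 CPM in diestrus, and none of its 12 tested genes passed in that comparison by edgeR, DESeq2 or limma-voom or had an unadjusted p under 0.05 in edgeR. The fat markers summed to 64.5 to 138 CPM in FL1 estrus and 25.7 to 57.5 CPM in FL1 diestrus, without overlap, and 7 of 8 luteal markers were lower in FL1 estrus, in a comparison with 15.9% of all genes called in either direction. Their part in the *Ccl2* difference was not tested.

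*Cx3cl1* (ENSMUSG00000031778, chr8:94772009-94782427), the membrane-bound ligand fractalkine, had 21.3, 24.0, 18.4, 19.1 and 9.47 CPM in ctrl estrus (18.5 ± 5.48) and 14.2, 15.5, 12.7, 9.96 and 12.8 CPM in ctrl diestrus (13.0 ± 2.05). All ctrl estrus libraries but replicate 5 lay above ctrl diestrus. In FL1 the values were 17.6, 14.2, 16.9, 12.7 and 12.4 CPM in estrus (14.8 ± 2.38) and 9.22, 11.2, 13.2, 11.9 and 13.6 CPM in diestrus (11.8 ± 1.74). The difference between stages was 0.50 in ctrl (SE 0.22, adjusted p = 0.288) and 0.32 in FL1 (SE 0.17, adjusted p = 0.203). Without ctrl estrus replicate 5, the library that stood farthest from its group, the difference in ctrl was 0.65 and passed (adjusted p = 0.0402). The line difference was -0.33 in estrus (adjusted p = 0.500) and -0.15 in diestrus (adjusted p = 0.707). *Cx3cr1*, the receptor of this ligand, was weaker expressed in FL1 in estrus, with a log2FC of -0.85 (SE 0.20, adjusted p = 0.0386 by edgeR), a call that limma-voom did not make. In diestrus its log2FC was -0.63 (adjusted p = 0.135).

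*Cxcl1* (ENSMUSG00000029380, chr5:90891241-90893115), which encodes a neutrophil attractant, was hardly detected. It had 7, 12, 2, 12 and 0 counts in ctrl estrus, 4, 6, 9, 6 and 8 in FL1 estrus, 14, 14, 10, 21 and 3 in ctrl diestrus and 9, 11, 5, 3 and 3 in FL1 diestrus. All groups overlapped, and the gene was below the filter in every comparison. With the filter lowered to 1 count in total, the log2FC was between -0.98 and -0.053 with SE of 0.61 to 0.75 in the 4 comparisons of 2 groups, and the adjusted p was at least 0.479. A difference was not detectable at this depth.

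*Hif1a* (ENSMUSG00000021109, chr12:73901375-73947530) encodes the oxygen-regulated subunit of HIF1, which is controlled mainly through protein stability. Its values were 166, 158, 190, 160 and 113 CPM in ctrl estrus (158 ± 27.9) and 175, 183, 181, 156 and 156 CPM in FL1 estrus (170 ± 13.3). In diestrus they were 132, 147, 155, 127 and 162 CPM in ctrl (144 ± 15.1) and 146, 166, 206, 246 and 173 CPM in FL1 (188 ± 39.3). The line groups overlapped in both stages. The log2FC between the lines was 0.37 in diestrus (SE 0.13, adjusted p = 0.136), with FL1 higher in 22 of 25 pairs, and 0.10 in estrus (SE 0.12, adjusted p = 0.745). Between stages it was 0.13 in ctrl (adjusted p = 0.725) and -0.14 in FL1 (adjusted p = 0.465), and the interval in FL1 ran from -0.37 to 0.092. *Hif1a* overlaps 1 gene on its own strand and 1 on the opposite strand, and *Ccl2* overlaps 1 on the opposite strand. Of the genes named from the wider lists, *Ccl6*, *Cxcl10*, *Cxcr6*, *Cx3cr1*, *Ackr4*, *Gnai1* and *Cd74* overlap other annotated genes as well. So do *Epas1*, *Ep300*, *Pfkfb3*, *Slc2a1*, *Bnip3*, *Tpi1* and *Gpi1*. Whether counting used the strand is not given in the sources used here, so reads of such neighbours could not be told apart. None of the 7 genes shared its 3′ end with another annotated gene.

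**Figure D3:**
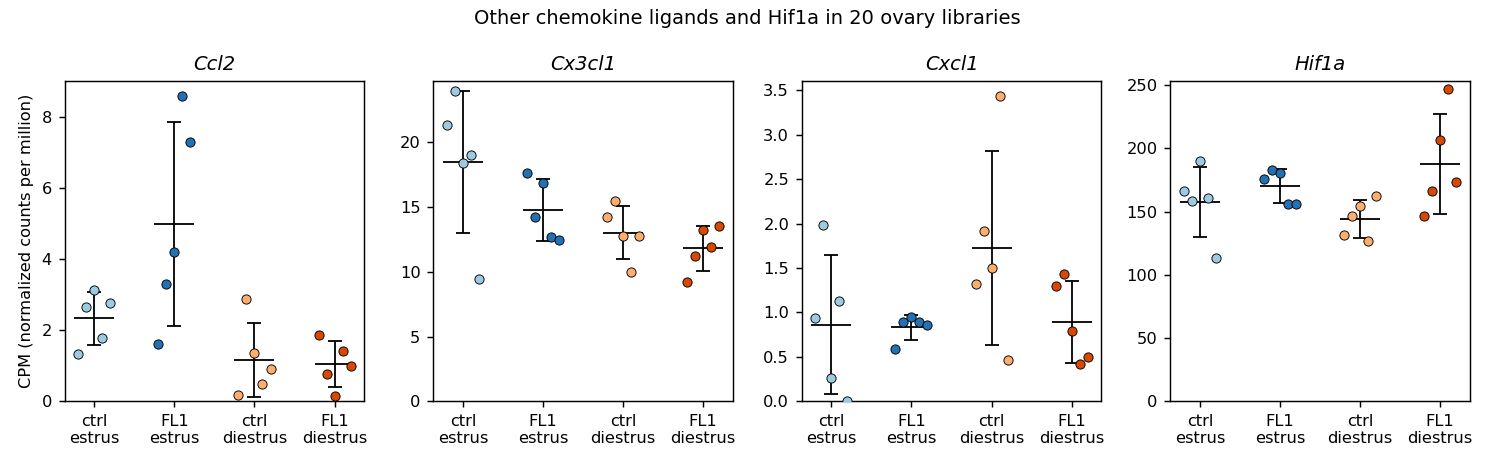
CPM of *Ccl2*, *Cx3cl1*, *Cxcl1* and *Hif1a* in each of the 20 libraries by group, with each vertical axis starting at 0. Points are libraries, horizontal lines are group means and bars are 1 SD (n = 5); *Ccl2* reaches 8.59 CPM in FL1 estrus, and the FL1 diestrus libraries lie between 0.158 and 1.87 CPM.

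Side by side, the median log2FC of the tested genes among the 7 was 0.31 for FL1 against ctrl in estrus (6 genes), 0.32 in diestrus (5 genes), 0.48 for estrus against diestrus in ctrl and 0.24 in FL1 (6 genes each). The median over all tested genes was within 0.01 of 0 in each of these comparisons. These medians describe few genes that were chosen with earlier results of these data known, so they are not an independent sample. The comparisons share libraries with each other, and each rests on its own 10 libraries.

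**Figure D4:**
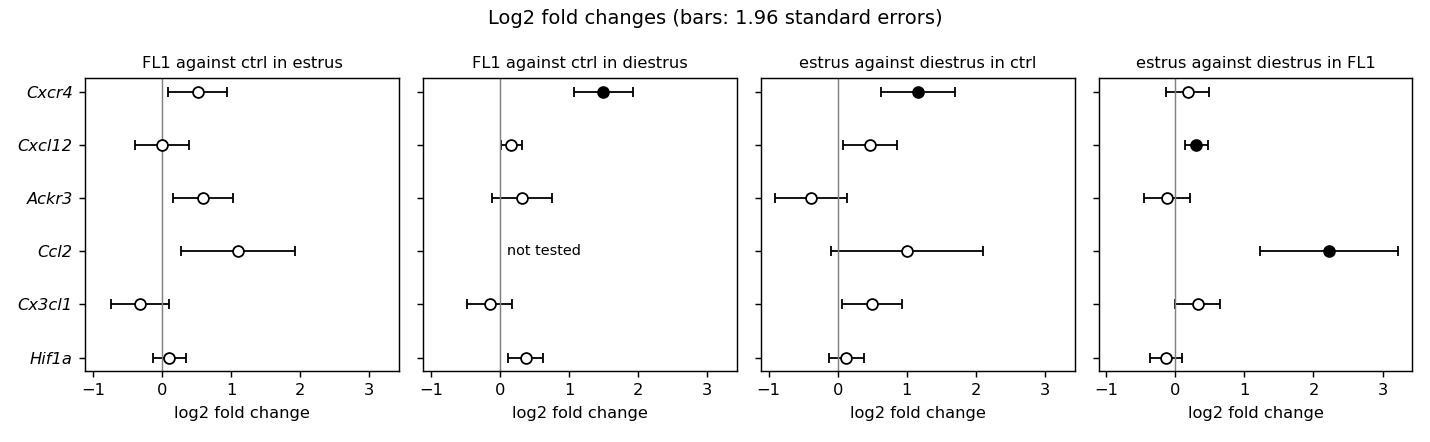
Log2 fold changes of 6 genes in the 4 comparisons (horizontal axis), with bars of 1.96 SE and filled points for an adjusted p of at most 0.05 by edgeR. The filled points are *Cxcr4* for FL1 against ctrl in diestrus (1.49) and for estrus against diestrus in ctrl (1.16), and *Cxcl12* (0.30) and *Ccl2* (2.23) for estrus against diestrus in FL1.

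Of the wider chemokine system, 18 CXC, XC and CX3C ligands were listed and 9 were tested in estrus and 10 in diestrus. *Cxcl14*, a ligand of epithelial and stromal cells, was weaker expressed in FL1 in both stages, as the only ligand of the list called by edgeR, at a background of 2.33% in estrus and 4.11% in diestrus. DESeq2 and limma-voom also called *Cxcl10* in estrus (edgeR log2FC 1.54, SE 0.38, adjusted p = 0.0517). The mean of *Cxcl14* was 194 ± 55.8 CPM in ctrl and 105 ± 21.4 in FL1 in estrus (log2FC -0.89, SE 0.19, adjusted p = 0.0230). In diestrus it was 190 ± 64.4 CPM in ctrl and 98.8 ± 13.3 in FL1 (log2FC -0.95, SE 0.18, adjusted p = 0.00759). In FL1, 3 of 9 tested ligands rose from diestrus to estrus, where 15.9% of all genes were called. They were *Cxcl5* (log2FC 2.24, from 0.362 to 1.83 CPM), *Pf4* (0.62) and *Cxcl12*. In ctrl, where 2.85% of all genes were called, none of 9 passed by edgeR, DESeq2 or limma-voom. An unadjusted p under 0.05 in edgeR was found for 5.

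Of the 20 CC ligands, *Ccl6*, a myeloid chemokine, was stronger expressed in FL1 in both stages. It was the only one called by edgeR of 9 tested in estrus (background 2.33%) and of 7 in diestrus (background 4.11%). DESeq2 also called *Ccl9* and *Ccl17* in estrus. The mean of *Ccl6* in estrus was 15.2 ± 3.83 CPM in ctrl and 47.4 ± 17.1 in FL1 (log2FC 1.63, SE 0.27, adjusted p = 0.00461). In diestrus it was 8.07 ± 2.13 CPM in ctrl and 19.0 ± 3.16 in FL1 (log2FC 1.21, SE 0.20, adjusted p = 0.00292). The lowest FL1 library stood above the highest ctrl library in both stages, at 21.5 against 19.2 CPM in estrus and 16.4 against 10.9 CPM in diestrus. From diestrus to estrus in FL1, where 15.9% of all genes were called, 4 of 9 CC ligands rose by edgeR and none fell. They were *Ccl6* (log2FC 1.32, adjusted p = 0.000858), *Ccl2*, the related monocyte attractant *Ccl7* (2.29, adjusted p = 0.0167) and *Ccl9* (1.14, adjusted p = 0.0252), of which limma-voom did not call *Ccl7*. In ctrl, where 2.85% of all genes were called, none of 8 passed by edgeR or limma-voom and 1 by DESeq2. An unadjusted p under 0.05 in edgeR was found for 3.

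Among 23 chemokine receptors and scavengers, 8 or 9 were tested in each comparison of 2 groups. By edgeR, 1 gene was called in each, which was *Cx3cr1* (lower in FL1 in estrus), *Cxcr4* (higher in FL1 in diestrus and in estrus of ctrl) and the scavenger *Ackr4* (lower in estrus of FL1, log2FC -1.32, SE 0.44, adjusted p = 0.0497). Of all genes tested, 2.33% were called between the lines in estrus and 4.11% in diestrus. Between the stages it was 2.85% in ctrl and 15.9% in FL1. DESeq2 also called *Ccrl2* between the lines in diestrus and *Cxcr6* between the stages in ctrl. In limma-voom, *Cxcr4* in diestrus was the only one of these calls that held. Of the 28 genes for coupling and turnover of CXCR4 (G protein subunits, arrestins, kinases and signalling enzymes), none passed in either line comparison by edgeR. There were 27 tested in estrus (background 2.33%) and 26 in diestrus (background 4.11%). For 3 of them in estrus and 6 in diestrus the unadjusted p was under 0.05, counts without a background share. DESeq2 called 0 and 1, limma-voom 0 and 0. In FL1, 4 of 27 were lower in estrus than in diestrus, a share near the 15.9% of all genes called in that comparison. They were *Ptk2b* (log2FC -0.64), *Cd74* (-0.48), *Gnai1* (-0.44) and *Mapk3* (-0.42), with adjusted p between 0.00859 and 0.0265. The median log2FC of the 27 was -0.090.

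**Figure D5:**
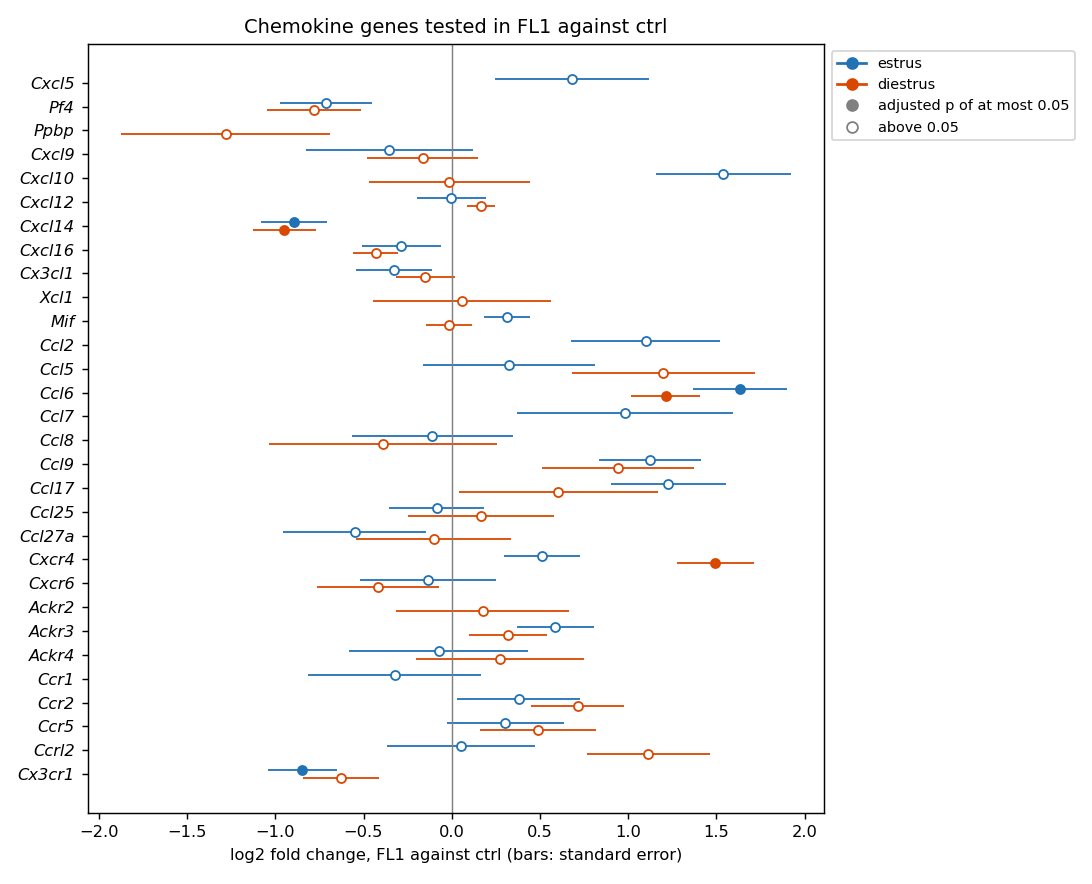
Log2 fold change of FL1 against ctrl (horizontal axis, bars: SE) for the chemokine ligands and receptors tested in estrus (blue) or diestrus (orange), 1 row per gene, with filled points for an adjusted p of at most 0.05. Filled points are *Cxcl14* and *Ccl6* in both stages, *Cx3cr1* in estrus and *Cxcr4* in diestrus.

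Around *Hif1a*, none of the 11 tested hypoxia pathway regulators in estrus and of 10 in diestrus was called between the lines by edgeR, DESeq2 or limma-voom. The edgeR backgrounds were 2.33% and 4.11% of all genes, so few calls could be awaited in lists of this length. An unadjusted p under 0.05 in edgeR was found for 1 and 2 of them. *Epas1*, which encodes HIF2 alpha, was lower in estrus than in diestrus in ctrl (log2FC -0.47, SE 0.094, adjusted p = 0.0185) and in FL1 (-0.79, SE 0.089, adjusted p = 1.56e-05), where the coactivator *Ep300* was lower as well (-0.37, adjusted p = 0.0122). Between the stages 1 of 11 tested regulators was thus called in ctrl and 2 of 11 in FL1, against 2.85% and 15.9% of all genes. Of 23 HIF target genes, 1 rose in FL1 in estrus, against 2.33% of all genes called (*Ldha*, lactate dehydrogenase, log2FC 0.64, adjusted p = 0.0420). Of 21 tested in diestrus, where 4.11% of all genes were called, 2 rose, the glycolytic regulator *Pfkfb3* (1.14, adjusted p = 0.00824) and *Gpi1* (0.59, adjusted p = 0.00816), and none of the targets fell in either stage.

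From diestrus to estrus in FL1, 6 of 22 HIF targets rose and 2 fell by edgeR, where 15.9% of all genes were called in either direction, and limma-voom called 6 of the 8. Those with the smallest adjusted p that rose were *Ldha* (log2FC 0.87), *Tpi1* (0.47), *Eno1* (0.89), *Bnip3* (0.59) and *Slc2a1* (0.74), and *Pfkfb3* was lower (-0.69). In ctrl, where 2.85% of all genes were called, none of 22 passed by edgeR or limma-voom and 2 by DESeq2. An unadjusted p under 0.05 in edgeR was found for 6. *Ldha*, *Tpi1*, *Eno1*, *Bnip3* and *Gpi1* share part of their 3′ ends with between 1 and 10 other annotated genes, so their counts are uncertain.

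The genes whose log2 CPM was most like that of *Cxcr4* over the 20 libraries were *Tspan11* (r = 0.890), *Atp6ap1l* (r = 0.884), *Lyrm7* (r = 0.874), *S100a11* (r = 0.857) and *Cd300lb* (r = 0.851). Each had its lowest group mean in ctrl diestrus, for example *Tspan11* with 5.34 CPM there, 21.0 in ctrl estrus, 35.6 in FL1 diestrus and 53.1 in FL1 estrus. After removal of the group means, the most similar genes were *Eif4a1* (r = 0.842), *Ddx46* (r = 0.839), *Top2b* (r = 0.760), *Cwf19l2* (r = 0.751) and *Gm5857* (r = 0.732). No gene was on both lists. Of the axis itself, before removal of the group means, *Hif1a* had r = 0.46, *Cxcl12* 0.42, *Ccl2* 0.30, *Ackr3* 0.23 and *Cx3cl1* 0.032 with *Cxcr4*. After removal, *Hif1a* had r = 0.074, *Cxcl12* 0.019, *Ccl2* -0.25, *Ackr3* -0.011 and *Cx3cl1* -0.089. These values share the libraries and the group structure, and are descriptions.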

How the data were processed

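Ovary RNA of 20 mice was sequenced from the 3′ end with a QuantSeq kit. The authors trimmed the reads and aligned them with STAR to GRCm38, and deposited 1 table of raw counts per gene and library. The labels also list Cuffdiff. The counting tool and its strand setting are not given in the sources used here. The 7 genes and all gene lists were chosen with earlier results of these data known.

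From the deposited counts, CPM values were computed with TMM factors, and groups were compared with the quasi-likelihood test of edgeR 4.0.16 (R 4.3.3). Each comparison of 2 groups used its own 10 libraries, and the interaction used all 20. Genes passed filterByExpr with a minimum count of 10, and p-values were adjusted by Benjamini-Hochberg over all tested genes (threshold 0.05). Exact two-sided permutation tests used mean log2 CPM (prior count 2). Libraries of a group were taken as separate animals. In 40 pairs within groups, counts differed by at least 6.03 times the sampling noise (chi-square per gene). On simulated data, 89.5% of 200 changed genes were recovered for the lines in diestrus (13259 genes) and 85.5% for the stages in ctrl (13334 genes). Of the 192 and 176 genes called there, 13 and 5 were not among the changed genes. All changed genes were given a log2 difference of the same size, close to the log2FC of *Cxcr4* between the lines in diestrus (1.49). Recovery by size of difference was not tested, so these shares cannot be read as the detection rate for small differences.

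Alternatives were DESeq2 1.42.0, limma-voom 3.58.1, RLE size factors, other count filters, a joint fit of the 4 groups, a block for the replicate number, and leaving out each library. Genes named beyond the 7 were those called on the lists, at most the 6 with the smallest adjusted p per list and comparison, and the 5 most correlated with *Cxcr4* by each measure. Some genes outside this rule were named after their values were seen, as markers beside a result (*Ptprc*, *Csf1r*, *Adgre1*, *Col1a1*, *Pdgfra*, *Cyp17a1*, *Egfl7*, *Foxl2*, *Lhcgr*, *Inhba* and other leukocyte markers) or as calls of another tool (*Cxcl10*, *Ccl9*, *Ccl17*, *Ccrl2*, *Cxcr6*). Read totals of 5991223 to 10352718 limit genes such as *Cxcl1* to a few counts. Gene positions are from GENCODE (GRCm38), which held 54723 of the 54838 IDs, and promoters from RefSeq (GRCm38.p6).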

Additional observations from a re-analysis of the deposited data

Results flagged for a closer look

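In 28 groups of 5 libraries (7 genes in 4 groups), 2 libraries stood apart from their group by Dixon's test, which chance gives in about 1 of 20 groups. The highest FL1 estrus library of *Ackr3* had 42.8 CPM, against 25.3 CPM in the next. The lowest FL1 estrus library of *Cxcl1* had 0.588 CPM, against 0.857 CPM in the next, and these values rest on 4 and 8 counts.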

How the results depend on the processing

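The line difference of *Cxcr4* in diestrus kept its direction and its call in all 10 fits without 1 library (log2FC 1.35 to 1.57) and in all 7 other settings (1.48 to 1.5, adjusted p up to 0.0102). Its stage difference in ctrl ranged from 1.01 to 1.32 without 1 library and lost the call in limma-voom (1.15, adjusted p = 0.0611) and with the replicate block (1.14, adjusted p = 0.103). The number of the 7 genes called there was then 0, and 0 to 1 without 1 library. For the stages in FL1 it was 1 with at least 1 count in total, with at least 10 counts in every library, with all 20 libraries in 1 fit and with the replicate block, and 1 to 2 without 1 library. In FL1, *Cxcl12* lost its call with at least 1 count in total (adjusted p = 0.0541), in the fit of all 20 libraries (0.236) and with the block (0.0533), and *Ccl2* fell below the filter of 10 counts in every library. The difference of *Cxcl12* between the lines in estrus changed sign around 0, with 0.00042 under RLE size factors, 0.056 in limma-voom, 0.011 with at least 10 counts in every library, 0.062 with the replicate block and -0.13 to 0.19 without 1 library. Its interaction was -0.020 to 0.30 without 1 library.

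Over all genes, 311 were called between the lines in estrus, against 670 in DESeq2, 477 with at least 1 count in total, 531 in the fit of all 20 libraries and 175 to 418 without 1 library. In diestrus 545 were called, against 891 in DESeq2, 846 with at least 1 count and 349 to 594 without 1 library. Between stages in ctrl it was 380, against 771 in DESeq2, 909 in the fit of all libraries and 176 to 516 without 1 library. The interaction had 8, against 148 in DESeq2, 3 in limma-voom, 17 with at least 1 count and 0 to 15 without 1 library. The cause of these shifts was not tested.

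Same-numbered libraries of different groups did not clearly deviate together (correlations of -0.095 to 0.13 over 20 pairs, 1 of them over 0.1). This gave no sign of a pairing by number, but a weak shared effect could have been missed. Of 544 alternative values, 514 kept direction and side of the threshold, 18 lost and 1 gained the call, and 11 changed sign. With *Ccl2* at 1 to 68 and *Cxcl1* at 0 to 21 counts per library, depth limits both genes.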
